A study of Mus musculus with 24 samples.

Results

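The 8 genes described here, *Gas7*, *Lpl*, *Ecm1*, *Cd14*, *Cav2*, *Adgre1*, *Tmem119* and *Cd5l*, were listed by name as macrophage-type genes of Notch2-mutant Ly6Clo cells, and are 8 of the 53715 genes in the table. The list was drawn up from results of these data that compared the genotypes in Ly6Clo cells. Values of the 8 genes in Ly6Clo cells are therefore given as a description with no test, and tests of these genes were made in Ly6Chi monocytes alone. RNA was sequenced from monocytes sorted from the peripheral blood of C57BL/6 mice aged 8 to 10 weeks, with 24 libraries in 6 groups of 4. Wild type (wt) and N2ΔMy mice were compared, the latter lacking floxed *Notch2* in myeloid cells through Cre expressed from the *Lyz2* locus. In both genotypes the sort gate required GFP from the *Cx3cr1* reporter allele, along with CD11b and CD115. Mice had received Aldara cream with 5% imiquimod (IMQ), an agonist of Toll-like receptor 7, at 50 mg per day on depilated skin for 4 to 5 days, or Sham cream, and were sampled on day 5. Ly6Chi monocytes (without CD43 and MHC-II) were sequenced from wt and N2ΔMy mice after Sham and after IMQ, and Ly6Clo cells (without MHC-II) from wt and N2ΔMy mice after IMQ. Ly6Clo cells from Sham mice were not analysed here. The labels number the replicates without stating whether a library came from 1 mouse or a pool, and whether wt mice carried Cre is not given in the sources used here.

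Ly6Chi monocytes are the classical monocytes of mouse blood, which leave it at sites of inflammation and can become macrophages there. Some of them turn instead into Ly6Clo cells, which patrol the vessel wall, a step that depends on Notch2. Macrophages are told apart from monocytes by surface receptors such as the one encoded by *Adgre1*, by secreted proteins that handle lipids and debris, and by genes typical of one tissue, such as *Tmem119* in microglia of the brain.

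Values are normalized counts, in which the deposited table removes differences in depth between libraries. A value of 1 is worth about 1 read, since the inferred number of counted reads ranged from 9522049 to 19759572 per library and the sums of the normalized values from 13273508 to 14651770. *Notch2* RNA was lower in every N2ΔMy library than in every wt library of the same subset and treatment and remained readily detected, at 9368 to 11518 in N2ΔMy and 16037 to 20005 in wt Ly6Clo cells. The first 2 replicates of each group carry library numbers of one series and the other 2 those of another, so values within each series are given beside several results. Marker genes of T cells summed to at most 29 and those of NK cells to at most 69 in any library. Dendritic cell markers summed to 2263 to 3055 in wt and 1293 to 3605 in N2ΔMy Ly6Clo cells, and neutrophil markers to 2976 to 3963 and 1982 to 2820, with *Ly6g* and *Elane* at 3 or less. The endothelial list summed to 9854 to 14826 in wt and 6396 to 9169 in N2ΔMy Ly6Clo cells, mostly from *Pecam1*, while *Tek*, *Emcn* and *Egfl7* were at 3 or less.

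The 8 genes fall into cell surface proteins (*Adgre1*, *Cd14*, *Tmem119*), proteins at the inner side of the membrane (*Gas7*, *Cav2*) and secreted proteins (*Lpl*, *Ecm1*, *Cd5l*). Coordinates are those of the deposited table on GRCm38.p6. *Adgre1* (ENSMUSG00000004730.14) lies on the plus strand at chr17:57358686-57483529 and *Tmem119* (ENSMUSG00000054675.5) on the minus strand at chr5:113793729-113800516. *Gas7* (ENSMUSG00000033066.15) spans chr11:67455437-67688990 on the plus strand, where the 2 genes that overlap it on the other strand reached at most 5 in any library. *Cav2* (ENSMUSG00000000058.6) lies on the plus strand at chr6:17281185-17289115, *Lpl* (ENSMUSG00000015568.16) on the plus strand at chr8:68880491-68907448, *Ecm1* (ENSMUSG00000028108.15) on the minus strand at chr3:95734147-95739569 and *Cd5l* (ENSMUSG00000015854.7) on the plus strand at chr3:87357881-87371073. Values count reads over all exons of a gene.

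The RefSeq promoter table for GRCm38.p6 matched 3 of the 8 genes, *Ecm1*, *Cav2* and *Cd5l*. Their 250 bases before the annotated start are shown, 5′ to 3′ on the strand of the gene, because *Ecm1* and *Cav2* are expressed in Ly6Chi monocytes and *Cd5l* is not. The windows are chr3:95739570-95739819 (minus strand) for *Ecm1*, chr6:17280935-17281184 (plus strand) for *Cav2* and chr3:87357631-87357880 (plus strand) for *Cd5l*. Capitals mark the motif match found in each of the *Ecm1* and *Cav2* windows.
Ecm1: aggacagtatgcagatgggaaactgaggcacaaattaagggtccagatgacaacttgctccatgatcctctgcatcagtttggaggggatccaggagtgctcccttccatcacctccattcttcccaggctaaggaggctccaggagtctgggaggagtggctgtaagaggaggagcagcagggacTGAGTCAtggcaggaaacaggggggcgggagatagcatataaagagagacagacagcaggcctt
Cav2: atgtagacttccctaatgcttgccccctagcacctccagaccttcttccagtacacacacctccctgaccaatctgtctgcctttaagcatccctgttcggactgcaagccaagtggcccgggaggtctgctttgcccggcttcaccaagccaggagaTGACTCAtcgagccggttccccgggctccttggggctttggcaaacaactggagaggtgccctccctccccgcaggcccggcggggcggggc
Cd5l: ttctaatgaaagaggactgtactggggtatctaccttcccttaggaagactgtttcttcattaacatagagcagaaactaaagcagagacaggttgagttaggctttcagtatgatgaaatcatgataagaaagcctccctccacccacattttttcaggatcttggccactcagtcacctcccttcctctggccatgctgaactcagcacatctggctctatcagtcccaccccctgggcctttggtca

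Both strands of these windows were searched for AGGAAGT (PU.1 type), TGAGTCA (AP-1), GTGGGAA (RBPJ, the DNA-binding partner of Notch), TGCTGAC (only a part of the MAF recognition element) and 2 copies of AGGTCA separated by 4 bases (the LXR type). *Ecm1* held the AP-1 letters beginning 64 bases before the start, and *Cav2* held them on the other strand, read as TGACTCA, beginning 92 bases before the start. These letters occur in 4.43% of the 27025 RefSeq promoter windows of this length. None of the 5 motifs was found in the *Cd5l* window. In all promoter windows AGGAAGT occurred in 7.8%, GTGGGAA in 5.41%, TGCTGAC in 3.72% and the repeat in 0.0111%.

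The label of the list was checked against the levels. *Gas7*, *Lpl*, *Ecm1*, *Cd14*, *Cav2* and *Adgre1* reached a normalized count of 50 in libraries of all 4 Ly6Chi groups, so 6 of the 8 genes were also RNAs of blood monocytes. *Tmem119* reached 50 in 4 libraries, 3 of N2ΔMy Ly6Clo cells and 1 of N2ΔMy Ly6Chi cells after IMQ. *Cd5l* reached 50 in N2ΔMy Ly6Clo cells alone. All 8 genes passed the filter on low values (at least 50 in at least 1 of 24 libraries), which *Cd5l* passed only through the group where it was high. Per kilobase of exon, the mean level in N2ΔMy Ly6Clo cells was highest for *Adgre1* at 2374 normalized counts and lowest for *Cav2* at 23.4, with *Ecm1* at 473, *Cd14* at 334, *Lpl* at 242, *Gas7* at 205, *Cd5l* at 85.3 and *Tmem119* at 27.4.

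**Figure D1:**
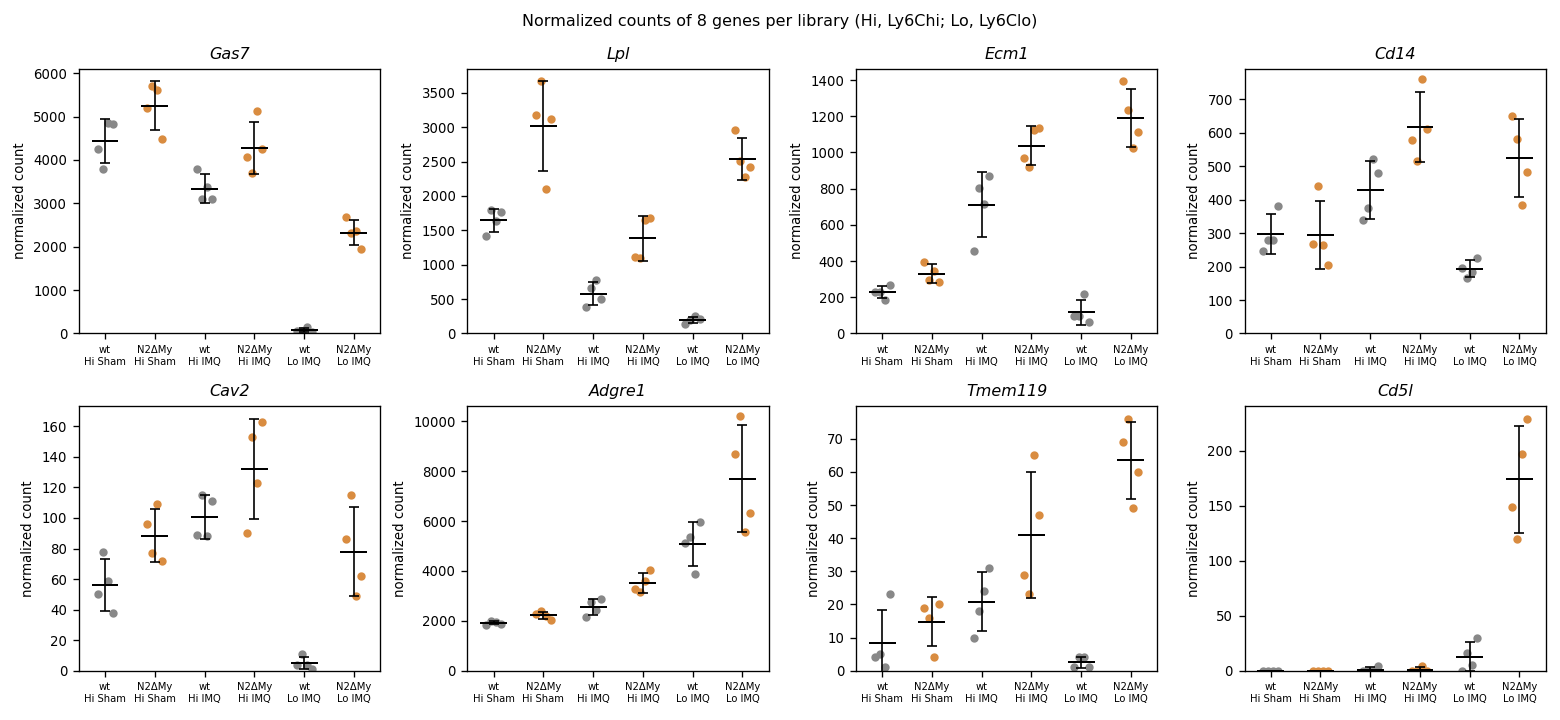
Normalized counts (vertical axes, linear) of the 8 genes in each of 24 libraries (points), by group, with the mean (bar) and SD (whiskers, n = 4); Hi is Ly6Chi and Lo is Ly6Clo. *Gas7* is high in all Ly6Chi groups and in N2ΔMy Ly6Clo cells and at 145 or less in wt Ly6Clo cells, whereas *Cd5l* is above 30 in N2ΔMy Ly6Clo cells alone.

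*Gas7* encodes an F-BAR protein that binds actin at the membrane. In Ly6Clo cells after IMQ it was at 50, 49, 145 and 42 normalized counts in the wt libraries and at 2676, 2306, 2364 and 1957 in the N2ΔMy libraries. The groups did not overlap, the lowest N2ΔMy library standing far above the highest wt library, and the means of 2326 ± 295 and 71.5 ± 49.1 (SD, n = 4 each) differed by 5.19 on the log2(value + 1) scale. In Ly6Chi cells after IMQ, *Gas7* was at 3792, 3090, 3380 and 3098 in wt and at 4068, 3700, 5118 and 4242 in N2ΔMy mice. Its mean in Ly6Clo cells was 2.14% of that in Ly6Chi cells in wt mice and 54.3% in N2ΔMy mice. The wt Ly6Clo library with the value of 145, replicate 3, also held more RNA of the classical monocyte marker *F13a1* (450, against 71 to 120 in the other 3), and without it the log2 difference was 5.59. Whether cells of another kind in that library have a part in its value was not tested. In bulk samples fewer cells that express a gene and less RNA per cell cannot be told apart.

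*Cav2* encodes caveolin-2, a coat protein of membrane pits. It was at 4, 11, 4 and 1 normalized counts in wt and at 86, 115, 49 and 62 in N2ΔMy Ly6Clo cells, with no overlap. In Ly6Chi cells after IMQ it was at 89, 115, 88 and 111 in wt and at 90, 153, 123 and 163 in N2ΔMy mice. The log2 difference in Ly6Clo cells was 3.92. *Cav2* resembled *Gas7* in its shares, with the Ly6Clo mean at 4.96% of the Ly6Chi mean in wt and at 59.0% in N2ΔMy mice.

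Lipoprotein lipase, encoded by *Lpl*, frees fatty acids from the triglycerides of lipoproteins. *Lpl* was at 140, 191, 248 and 207 normalized counts in wt and at 2966, 2502, 2269 and 2416 in N2ΔMy Ly6Clo cells. No N2ΔMy library came near the wt range, and the log2 difference was 3.71 (4.05 and 3.36 within the first and second series). In Ly6Chi cells after IMQ it was at 388, 656, 774 and 502 in wt and at 1114, 1091, 1650 and 1673 in N2ΔMy mice. The order of the subsets differed between genotypes, since all wt Ly6Clo libraries were below all wt Ly6Chi libraries and all N2ΔMy Ly6Clo libraries were above all N2ΔMy Ly6Chi libraries after IMQ.

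*Ecm1*, which encodes a secreted glycoprotein of the extracellular matrix, was at 94, 99, 219 and 61 normalized counts in wt and at 1395, 1235, 1027 and 1112 in N2ΔMy Ly6Clo cells. The highest wt value again came from replicate 3, and the groups did not overlap, with a log2 difference of 3.47 (3.82 without that library). After IMQ the Ly6Chi values were 458, 804, 717 and 870 in wt and 972, 922, 1125 and 1133 in N2ΔMy mice, so that the N2ΔMy Ly6Clo and Ly6Chi libraries overlapped.

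*Cd5l* encodes a secreted protein of the scavenger receptor cysteine-rich family that tissue macrophages release. It was at 0, 16, 5 and 30 normalized counts in wt and at 149, 120, 197 and 229 in N2ΔMy Ly6Clo cells. In Ly6Chi cells all 8 Sham libraries were at 0, and after IMQ 1 wt and 1 N2ΔMy library were at 4 and the others at 0. *Cd5l* was the one gene of the 8 with nearly no RNA in Ly6Chi cells of either genotype, and no fold change against those cells is given.

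*Tmem119* encodes a membrane protein used to mark microglia. It was at 1, 4, 4 and 1 normalized counts in wt and at 69, 76, 49 and 60 in N2ΔMy Ly6Clo cells. In Ly6Chi cells after IMQ it was at 10, 18, 24 and 31 in wt and at 29, 23, 65 and 47 in N2ΔMy mice. The Ly6Clo groups did not overlap (log2 difference 4.33), whereas N2ΔMy Ly6Clo and N2ΔMy Ly6Chi libraries did.

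CD14 is the co-receptor that hands bacterial lipopolysaccharide (LPS) to Toll-like receptor 4. *Cd14* (ENSMUSG00000051439.6) lies on the minus strand at chr18:36725074-36726736. It was at 197, 166, 185 and 226 normalized counts in wt and at 652, 582, 384 and 483 in N2ΔMy Ly6Clo cells, with no overlap and a log2 difference of 1.42, higher in the first series (1.76) than in the second. In Ly6Chi cells after IMQ it was at 339, 375, 522 and 479 in wt and at 580, 517, 762 and 612 in N2ΔMy mice. Its wt Ly6Clo mean was 45.1% of the wt Ly6Chi mean, the smallest drop among the 6 genes that were lower in wt Ly6Clo cells.

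*Adgre1*, which encodes the macrophage antigen EMR1, an adhesion G protein-coupled receptor, had another order of levels. It was at 5105, 5355, 3876 and 5977 normalized counts in wt and at 8706, 10202, 5569 and 6342 in N2ΔMy Ly6Clo cells. These groups overlapped, and the N2ΔMy library was the higher in 4 of 4 same-numbered pairs, with a log2 difference of 0.58 (0.85 in the first and 0.30 in the second series). In Ly6Chi cells after IMQ it was at 2141, 2760, 2418 and 2879 in wt and at 3257, 3153, 3597 and 4054 in N2ΔMy mice. *Adgre1* was thus higher in Ly6Clo than in Ly6Chi cells in both genotypes, with means in Ly6Clo cells at 199% and 219% of those in Ly6Chi cells.

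Within N2ΔMy mice, the Ly6Clo level relative to the Ly6Chi level after IMQ differed between the library series. For *Lpl* the log2 difference was 1.30 in the first and 0.49 in the second series, for *Adgre1* 1.56 and 0.64, for *Tmem119* 1.45 and -0.03 and for *Ecm1* 0.47 and -0.08. It was 0.17 and -0.66 for *Cd14*, -0.24 and -1.35 for *Cav2* and -0.64 and -1.11 for *Gas7*. The second series thus had the lower value for all 7 genes with signal in Ly6Chi cells, with 2 pairs of libraries in each series, and Ly6Clo libraries of both series were above the wt Ly6Clo range for all of them except *Adgre1*.

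Between the genotypes in Ly6Clo cells, libraries of 7 of the 8 genes did not overlap, all 7 higher in N2ΔMy mice. Of the 11230 genes tested, 6.62% were higher in N2ΔMy mice without overlap, and 3.12% were called higher (limma, p adjusted over all genes tested by Benjamini-Hochberg at most 0.05, with a change of 0.6 or more on the log2 scale in either direction). The 8 genes were chosen on this contrast, so nothing is read from their number. All wt Ly6Clo libraries were below all wt Ly6Chi libraries after IMQ for 6 of them (*Gas7*, *Cav2*, *Tmem119*, *Ecm1*, *Lpl*, *Cd14*), as for 17.1% of all genes tested. In N2ΔMy mice the Ly6Clo means of these 6 were between 54.3% (*Gas7*) and 184% (*Lpl*) of the Ly6Chi means. Of 842 genes that were lower without overlap in wt Ly6Clo cells and at no more than 50% of the wt Ly6Chi mean, 43.0% had a N2ΔMy Ly6Clo mean of at least 50% of the N2ΔMy Ly6Chi mean.

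Most markers of classical monocytes were also higher in N2ΔMy Ly6Clo cells. The 8 markers summed to 2543 to 4906 in wt, 9846 to 14490 in N2ΔMy Ly6Clo cells and 59883 to 103398 in Ly6Chi cells, and 5 of the 8 were called higher in N2ΔMy Ly6Clo cells (*Vcan*, *F13a1*, *Ccr2*, *Mmp8*, *Chil3*; 7 with replicate number as a block). *Mgst1*, also on that list, went the other way without overlap, at 621 to 773 in wt and 401 to 514 in N2ΔMy Ly6Clo cells (log2 difference -0.53, under the required change), which is 44.8% and 26.4% of the respective Ly6Chi mean. In N2ΔMy mice the Ly6Clo mean of *Ly6c2*, which encodes an antigen used in the sort, was 2.64% of the Ly6Chi mean, that of *F13a1* 6.04%, *Vcan* 6.85% and *Ccr2* 30.4%. These shares lay below those of the 7 genes with signal in Ly6Chi cells. Those 7 genes were chosen on the genotype contrast in Ly6Clo cells, which favours high N2ΔMy shares, so nothing is read from this order. Of the 9 patrolling monocyte markers, 5 were called lower (*Nr4a1*, *Ace*, *Spn*, *Itgal*, *Eno3*) and *Cd36* higher in N2ΔMy Ly6Clo cells, their sums being 156429 to 180184 in wt and 90164 to 107781 in N2ΔMy mice. The part of a shift in cell makeup in the levels above was not tested.

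**Figure D2:**
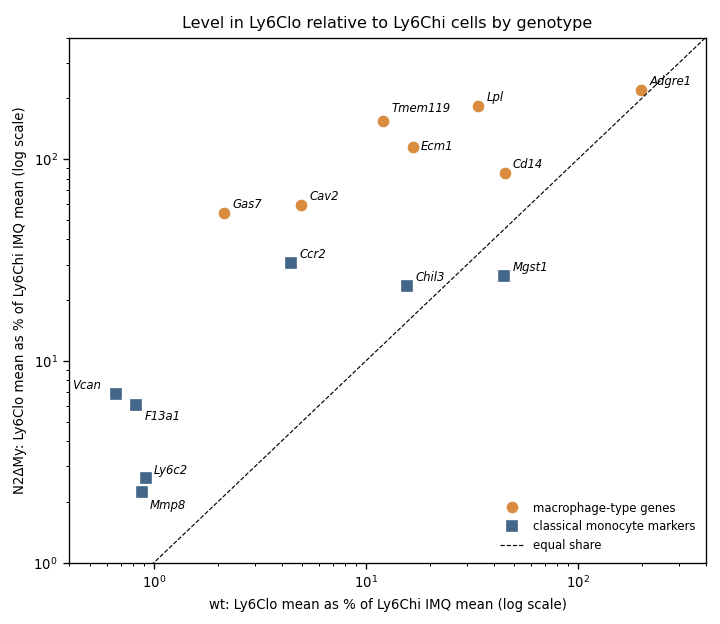
Mean normalized count in Ly6Clo cells as a percentage of the mean in Ly6Chi cells after IMQ, in wt (horizontal axis) and N2ΔMy mice (vertical axis), both log scales, for 7 of the genes (circles; *Cd5l* is left out for lack of Ly6Chi signal) and 7 of the 8 classical monocyte markers (squares); the dashed line marks equal shares. The circles lie between 54.3% and 219% on the vertical axis and the squares between 2.23% and 30.4%, with *Mgst1* the one square below the line. The genes shown as circles were chosen on the genotype contrast in Ly6Clo cells, which favours a high position.

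The genotypes were next compared in Ly6Chi monocytes, whose libraries were not those of the contrast that chose the list. They are not fully independent of it after IMQ, since same-numbered Ly6Chi and Ly6Clo libraries deviated together from their group means (r of 0.34 to 0.54 over the tested genes). None of the 8 genes was called after IMQ by limma with adjustment over all genes, where 0.0267% of the genes tested were called, 3 in number. At an unadjusted p under 0.05, 679 of all genes (6.05%) and 5 of the 8 passed (*Gas7*, *Lpl*, *Ecm1*, *Cd14*, *Adgre1*), each with a higher mean in N2ΔMy mice. The 6 genes that reached 50 in libraries of all 4 Ly6Chi groups had log2 differences of 0.35 to 1.27, where 53.0% of all genes tested were above 0. *Tmem119* (0.94) and *Cd5l* (0) passed the filter on low values through N2ΔMy libraries alone, which favours a higher N2ΔMy value. Patrolling monocyte markers differed as well in these libraries, summing to 32461 to 49289 in wt and 22900 to 33924 in N2ΔMy mice, with a median log2 difference of -0.54 over the 9. None of the 9 was called, and with the block 3 were called lower and 1 higher. Their part in the differences of the 8 genes was not tested.

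*Lpl* had the largest difference of the 8 in Ly6Chi cells after IMQ, at 1382 ± 323 in N2ΔMy and 580 ± 170 (SD, n = 4 each) in wt mice. The log2 difference was 1.27 (SE 0.23, limma adjusted p = 0.221), the groups did not overlap (two-sided exact permutation p = 0.0286, which is the smallest value possible with 70 splits of 8 libraries), and N2ΔMy was higher in 4 of 4 same-numbered pairs. With replicate number as a block *Lpl* was called (limma adjusted p = 0.0018), in a fit that called 0.481% of all genes. Within the first and second series the log2 difference was 1.13 and 1.41. *Ecm1* (log2 difference 0.58, SE 0.19, limma adjusted p = 0.622) and *Adgre1* (0.47, SE 0.12, limma adjusted p = 0.488) did not overlap between the genotypes either, as was true of 2.13% of all genes in this direction. With the block neither they nor *Cd14* (0.53) were called, their differences staying under the required change of 0.6.

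After Sham, none of the 8 genes was called between the genotypes, and 0.0178% of all genes were (2 genes by limma, with 585 genes or 5.21% at an unadjusted p under 0.05). At that unadjusted p 5 of the 8 passed (*Gas7*, *Lpl*, *Ecm1*, *Cav2*, *Adgre1*), each with a higher mean in N2ΔMy mice. With the block it was also none of the 8 and 0.0267% of all genes. *Lpl* was at 1421, 1789, 1630 and 1760 normalized counts in wt and at 3175, 3673, 2108 and 3114 in N2ΔMy Ly6Chi cells. The N2ΔMy libraries were all above the wt libraries, with a log2 difference of 0.85 (SE 0.16, limma adjusted p = 0.479, and 0.0711 with the block), lower in the second series (0.60) than in the first. In the same Sham libraries patrolling monocyte markers summed to 32245 to 35462 in wt and 22044 to 27825 in N2ΔMy mice, and 4 general monocyte markers to 198091 to 261402 and 128746 to 163617, neither overlapping. Most of the latter sum was *Lyz2*, the locus that carries Cre, at means of 199906 and 117990. The other general markers did not fall with it. Their means in wt and N2ΔMy mice were 19796 and 19302.5 for *Csf1r*, 3332 and 3334 for *Itgam* and 3374 and 4128 for *Cx3cr1*. The part of the shifts in patrolling markers and *Lyz2* in the differences of the 8 genes was not tested. *Lpl* was called (limma adjusted p = 0.0281, log2 1.01) without N2ΔMy Sham replicate 3, its lowest mutant library. *Ecm1*, at 227, 230, 187 and 270 in wt and 397, 296, 343 and 283 in N2ΔMy cells, and *Adgre1*, at 1843 to 1978 and 2039 to 2382, did not overlap either, as held for 1.42% of all genes in this direction. Their log2 differences were 0.53 and 0.21. *Cd14* overlapped, with means of 298 and 295 and a log2 difference of -0.05.

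**Figure D3:**
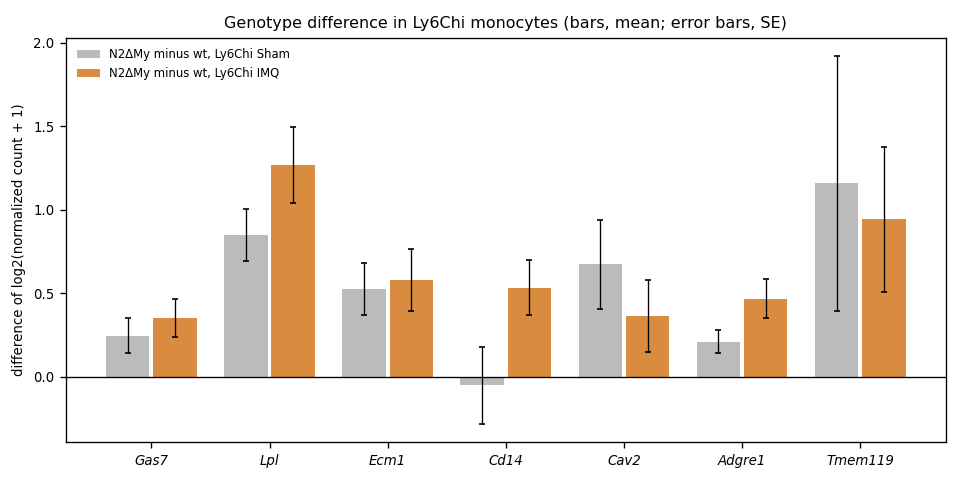
Difference of mean log2(normalized count + 1), N2ΔMy minus wt, in Ly6Chi monocytes after Sham (grey) and IMQ (orange) for 7 genes (bars; whiskers, SE from limma; n = 4 libraries per group; *Cd5l* is left out). All bars lie above 0 except *Cd14* after Sham at -0.05, and the *Lpl* bars reach 0.85 and 1.27.

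IMQ treatment was compared with Sham within each genotype, the 2 comparisons using separate libraries. Some genes on the marker lists of other cells moved with the treatment in both genotypes. Of 4 neutrophil markers tested, *S100a8* and *S100a9* rose, from means of at most 4.25 after Sham to means of 863 to 1569 after IMQ. The sum of all 10 neutrophil markers overlapped in wt mice, at 5531 to 6290 after Sham and 5384 to 8737 after IMQ. In N2ΔMy mice it did not, at 4836 to 5389 and 5825 to 9024. Of 6 dendritic cell markers tested, *Flt3*, *Clec9a* and *Cd209a* fell, with a median over the 6 of -1.05 in each genotype. The part of other cells in the changes below was not tested. In wt Ly6Chi cells 3 of the 8 genes were called, where 9.49% of all genes were. *Lpl* fell by 1.55 on the log2 scale (SE 0.19, limma adjusted p = 4.4e-04), from 1650 ± 168 to 580 ± 170 (SD, n = 4 each). *Ecm1* rose from 228 ± 33.9 to 712 ± 181 (log2 difference 1.61, SE 0.20, limma adjusted p = 4.8e-04), and *Cav2* from 56.2 ± 16.9 to 101 ± 14.2 (log2 difference 0.87, SE 0.25, limma adjusted p = 0.041). All 4 IMQ libraries lay beyond all Sham libraries for these 3 genes (two-sided exact permutation p = 0.0286 each). The call of *Cav2* was lost in the fits without any 1 of 7 of the 8 libraries (all but wt Sham replicate 2). With the block, which called 11.9% of all genes, *Tmem119* was called as well (log2 1.71, limma adjusted p = 0.0478), at 4, 5, 1 and 23 after Sham and 10, 18, 24 and 31 after IMQ, and it was also called without wt Sham replicate 4, the library at 23 (2.37). *Tmem119* passed the filter on low values through libraries of IMQ-treated N2ΔMy mice alone. This can favour genes that rise with IMQ, though the wt values compared here, at most 31, took no part in it. Nothing is read from these calls, which rest on few reads.

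In N2ΔMy Ly6Chi cells 4 of the 8 genes were called between IMQ and Sham, where 8.7% of all genes were. *Lpl* fell by 1.13 (SE 0.20, limma adjusted p = 0.00426), the difference being -1.63 in the first series alone and -0.62 in the second, where it was not called (limma adjusted p = 0.069). *Ecm1* rose from 330 ± 51.7 to 1038 ± 107 (SD, n = 4 each), by 1.66 on the log2 scale (SE 0.13, limma adjusted p = 7.6e-05). *Cd14* rose from 268, 442, 264 and 206 to 580, 517, 762 and 612, by 1.11 (SE 0.22, limma adjusted p = 0.00774). The *Cd14* difference was 0.67 in the first series, where it was not called (limma adjusted p = 0.147), and 1.55 in the second, and the call was also lost with no filter on low values (limma adjusted p = 0.0744). *Adgre1* rose from 2218 ± 145 to 3515 ± 406, by 0.66 (SE 0.10, limma adjusted p = 0.00145), and fell under the required fold change without N2ΔMy IMQ replicate 4 (0.59) and in the first series (0.46, against 0.86 in the second). In wt mice *Cd14* had a log2 difference of 0.52 (limma adjusted p = 0.0723), and was called without wt Sham replicate 4 (0.65) or wt IMQ replicate 1 (0.63). *Adgre1* had 0.40 there (limma adjusted p = 0.0186), under the required fold change.

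*Gas7* did not reach the threshold in either genotype. It was at 4255, 3785, 4853 and 4839 after Sham in wt Ly6Chi cells and at 5205, 5708, 5615 and 4479 in N2ΔMy cells, with log2 differences for IMQ against Sham of -0.41 and -0.30. Among the 8 genes the direction under treatment thus differed, *Lpl* being lower after IMQ in all same-numbered pairs of both genotypes and *Ecm1* higher in all of them.

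The difference between the genotypes in their response to IMQ was tested as an interaction in 1 fit over the 16 Ly6Chi libraries. None of the 8 genes and none of all 11230 genes was called (limma, 0.0% of all genes). At an unadjusted p under 0.05, 177 of all genes (1.58%) and none of the 8 passed, *Cd14* (interaction 0.58 on the log2 scale, limma unadjusted p = 0.0664) and *Adgre1* (0.26, limma unadjusted p = 0.0795) being nearest.

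**Figure D4:**
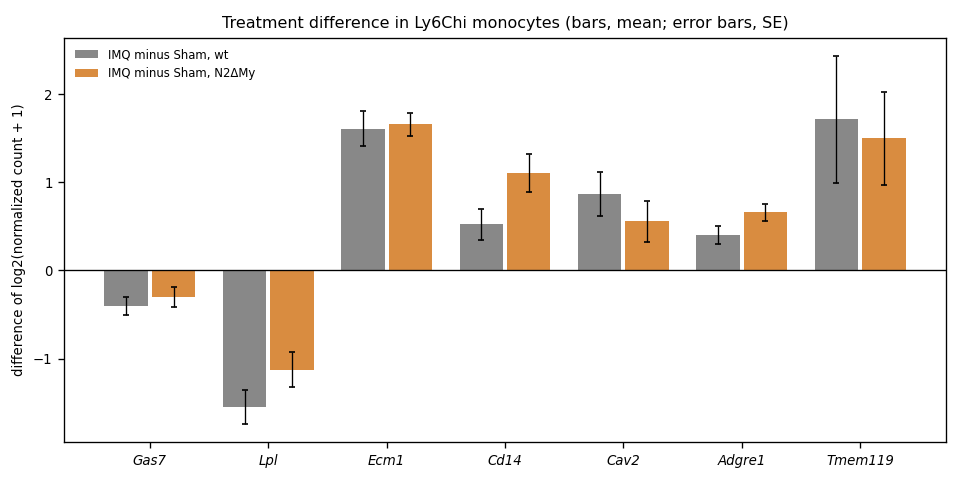
Difference of mean log2(normalized count + 1), IMQ minus Sham, in Ly6Chi monocytes of wt (grey) and N2ΔMy mice (orange) for 7 genes (bars; whiskers, SE from limma; n = 4 libraries per group; *Cd5l* is left out). *Lpl* lies at -1.55 and -1.13 and *Ecm1* at 1.61 and 1.66, while the wide whiskers of *Tmem119* go with values of at most 65 normalized counts.

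The order of the group means set the 8 genes apart from each other. *Gas7* was highest in N2ΔMy Sham Ly6Chi cells, and the 4 Ly6Chi groups overlapped with their neighbours in the order, followed without overlap by N2ΔMy Ly6Clo and then wt Ly6Clo cells. *Lpl* was highest in N2ΔMy Sham Ly6Chi and N2ΔMy Ly6Clo cells, which overlapped. *Ecm1* ran from N2ΔMy Ly6Clo and N2ΔMy Ly6Chi IMQ cells, which overlapped, through wt Ly6Chi IMQ and N2ΔMy Sham cells to wt Sham and wt Ly6Clo cells. The *Adgre1* order placed both Ly6Clo groups first, and neighbours overlapped except between N2ΔMy and wt Ly6Chi cells within each treatment. *Cav2* was highest in N2ΔMy Ly6Chi IMQ cells, and wt Ly6Clo cells alone stood apart, at the bottom. For *Cd14* and *Tmem119* all neighbours overlapped.

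Over the 24 libraries, the genes most like each of the 8 were named by Pearson's r of log2 values, as a description of points that share group and library series. *Gas7* was nearest to *Tbxas1* (r = 0.98), *Ccr2* (0.97) and *Cysltr1* (0.97), where *Ccr2* encodes the chemokine receptor that brings classical monocytes out of the bone marrow. *Ccr2* group means ran from 589 in wt to 5708 in N2ΔMy Ly6Clo cells and from 13274 to 25922 in Ly6Chi cells. *Cav2* was nearest to *Adam15* (0.96), *Capg* (0.95) and *Dennd4c* (0.94). *Lpl* was nearest to *Ly9* (0.93), *Atp2b1* (0.92) and *Lyz1* (0.92), the last of which resembles its neighbour *Lyz2* closely enough that reads may be shared between them, so its values are uncertain. *Lyz1* means in Sham Ly6Chi, IMQ Ly6Chi and Ly6Clo cells were 241, 126 and 37.5 in wt mice. They were 1880, 1100 and 2118.5 in N2ΔMy mice, and the cause of this genotype difference was not tested.

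*Ecm1* was nearest to *Lmna* (0.95), which encodes lamin A, *Myof* (0.94) and *Tmem119* (0.90). Among the genes nearest to *Tmem119* were *Ecm1* and *Espl1* (0.85), and with the group means removed its r with *Ecm1* was 0.52, while that of *Cd14* with *Ecm1* was 0.17. *Cd14* was nearest to *App* (0.87), *Ecm1* (0.87) and *Cebpe* (0.86), and *Adgre1* to *Pde8a* (0.98), *Gnb1* (0.96) and *Cyfip1* (0.96). *Cd5l* was nearest to *C1qb* (0.91), *Slamf9* (0.90) and *C1qc* (0.89), of which *C1qb* and *C1qc* encode chains of complement C1q, a product of macrophages. *C1qb* was at a mean of 1023 in N2ΔMy and 71.8 in wt Ly6Clo cells and of 13.8 to 43.0 in the Ly6Chi groups.

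Genes with related functions were counted in lists from which the 8 genes were left out. These lists were also drawn up with earlier results of these data known, so their counts and medians describe the lists and are not independent evidence of a direction. In Ly6Clo cells, where 4.78% of all genes were called between the genotypes, 9 of 19 tested genes of macrophage identity and phagocytosis rose and 1 fell. *C1qb* (log2 fold change 3.88, limma adjusted p = 7.1e-05), *C1qc* (4.18, limma adjusted p = 7.7e-05) and *Siglec1* (5.32, from a wt mean of 8 normalized counts) rose, and *Spic*, which encodes a transcription factor of red pulp macrophages, fell by 1.58. *C1qc* means were 4.5 to 12.25 in the Ly6Chi groups, 23.75 in wt and 424 in N2ΔMy Ly6Clo cells. Genes this low elsewhere can pass the filter on low values mainly through N2ΔMy Ly6Clo libraries. That favours a higher value there, so nothing is read from the *C1qc* and *Siglec1* calls. The median log2 difference over the 19 was 1.48 against -0.0035 over all genes tested.

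Of the 12 scavenger receptor genes tested 5 rose and none fell, with a median log2 difference of 1.02, among them *Stab1* (log2 fold change 3.34, limma adjusted p = 2.6e-04), *Msr1* (2.15) and *Mrc1* (3.32). Of 14 genes for secreted matrix proteins and their proteases 7 rose and none fell, with a median of 1.58, including *Fn1*, which encodes fibronectin, at 37370 ± 13988 in N2ΔMy and 3401 ± 960 in wt cells (SD, n = 4 each; log2 fold change 3.44, limma adjusted p = 7.1e-05), *Mmp9* (3.76) and *Timp2* (1.75). *Vcan*, *F13a1* and *Mmp8* on that list are also classical monocyte markers. Of 12 genes of the LPS receptor complex *Tlr2* (means of 150 in wt and 462 in N2ΔMy cells, limma adjusted p = 0.00348) and *Ly86* (1.03) rose, whereas *Tlr4*, the receptor that CD14 serves, had a log2 difference of 0.67 (limma adjusted p = 0.0807).

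The other lists held few calls. Of 14 genes for partners of lipoprotein lipase and fatty acid uptake, the fatty acid receptor gene *Cd36* rose (1.83) and *Fabp4* fell by 1.14. Of 11 LXR and sterol sensing genes and 14 other F-BAR genes none was called, with 1 and 2 called higher under the block, which called 8.36% of all genes. Of 9 genes of caveolae in the table only *Pacsin2* reached 50 in any library, and it was not called (log2 difference 0.40). Of 8 adhesion G protein-coupled receptor genes *Adgrg6* rose (1.59), 3 rising under the block. Of 10 microglia genes *Rhob* rose (0.63) and *Tgfbr1* fell by 0.71, and of 5 genes of Kupffer cells and red pulp macrophages only *Spic* was called. With the block the macrophage identity list had 11 genes higher and 2 lower, the matrix list 8 and 1, the LPS receptor list 3 and 0 and the patrolling monocyte markers 1 and 6. In the Kupffer cell list 1 gene also rose, and the counts of the fatty acid list were 2 higher and 2 lower and those of the microglia list 2 higher and 1 lower. The 6 dendritic cell markers tested had a median log2 difference of 1.11 between the genotypes in Ly6Clo cells. None of the 6 was called, and with the block 2 were called higher and 1 lower.

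In the Ly6Chi genotype comparisons no gene of these lists was called. With the block, which called 0.481% of all genes, 2 of 19 genes of macrophage identity, 2 of 14 of fatty acid uptake, 1 of 11 LXR genes and 1 of 12 scavenger receptor genes were called higher in N2ΔMy Ly6Chi cells after IMQ, a gene counting once in each list that holds it, and none after Sham.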

How the data were processed

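Monocytes were sorted from mouse blood and total RNA libraries were made with a stranded low-input kit (24 libraries, 6 groups of 4). Per the labels and the methods of the study, the authors trimmed reads (Trim Galore 0.4.4), aligned them with STAR 2.5.3a to GRCm38.p6, counted them per gene and scaled the counts by DESeq2 size factors. The deposited table gives normalized counts as whole numbers, which were treated as a score and never as raw counts; the strand setting used in counting is not given in the sources used here. The deposited table also holds the authors' own comparisons (log2 fold changes, standard errors, Wald statistics and p-values), which were not used. Of the 53715 genes listed, 25137 were at 0 in all libraries. The depth of each library was inferred from the spacing of the values, with 9522049 to 19759572 reads and a scale searched from 0.4 to 1.6 around the sum. No 2 libraries held equal values in more than 1.57% of genes.

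The 11230 genes that reached 50 in any library were tested on log2(value + 1) with limma 3.58.1 (R 4.3.3; eBayes with trend) over the libraries of the groups compared. A call needed p at most 0.05 after Benjamini-Hochberg adjustment over all 11230 genes and a change of 0.6 or more on the log2 scale. A fold change on this scale understates the change of low genes. Exact permutation tests over libraries were two-sided. The steps were tested on simulated data: for the Ly6Chi IMQ genotype comparison (11230 genes), 100 of 103 genes changed by 1 on the log2 scale and 97 of 97 changed by 2 were recovered, with 6 false calls. For the interaction these were 72 of 87 and 112 of 113, with 10 false calls. The share of such differences that would be called in the measured libraries was not tested. In the measured Ly6Chi IMQ genotype comparison *Lpl*, at a log2 difference of 1.27 (SE 0.23), was not called (limma adjusted p = 0.221).

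The 8 genes and all gene lists were chosen with earlier results of these data known. The named genes were these 8, for each the 3 genes with the highest Pearson r over 24 libraries, per list up to 4 called genes with the largest change in Ly6Clo cells, and *Notch2*; marker genes and further list genes that were not called were named to complete a count or for their role after their values were seen. Same-numbered libraries deviated together (r of 0.16 to 0.62 over all comparisons). With the library series removed, the mean r per comparison was -0.01 to 0.24, against 0.35 to 0.52 before. The labels do not say that same-numbered libraries were pairs. The fit with replicate number as a block, which also takes up the library series, is given where it changes a call. Alternatives were the block, TMM scaling, other filters, pseudocounts of 0.1 and 10, values under 1.1 set to 1.1, no trend, library series as a covariate or each series alone, all 24 libraries in 1 fit, and leaving out each library. P-values measure the spread between these libraries. Values of 1 marker gene and 1 similar gene are not reported here. Promoter windows were taken from a RefSeq table of GRCm38.p6.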

Additional observations from a re-analysis of the deposited data

Results flagged for a closer look

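In the group of 4 wt Ly6Clo libraries, replicate 3 stood apart for *Gas7*, at 145 normalized counts against 42 to 50 in the other 3, with a gap of 0.922 of the range of the group. In all, 43 groups of 4 values were examined, and chance alone would mark about 1 in 20. The value of *F13a1* in that library was also the highest of the group, and its part in the *Gas7* value was not tested.

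*Lpl* differed in direction between the genotypes when Ly6Clo cells were set against Ly6Chi cells after IMQ, with a log2 difference of -1.54 in wt and 0.90 in N2ΔMy mice. All 4 wt Ly6Clo libraries were below and all 4 N2ΔMy Ly6Clo libraries above the Ly6Chi libraries of their genotype. The difference between the genotypes was not tested, because *Lpl* was chosen on these Ly6Clo libraries.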

How the results depend on the processing

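With the replicate block, the counts of the 8 genes called changed from 0 to 1 in the Ly6Chi genotype comparison after IMQ (*Lpl*) and from 3 to 4 in the wt treatment comparison (*Tmem119*, which passed the filter on low values through N2ΔMy IMQ libraries alone). The counts after Sham (0), in the N2ΔMy treatment comparison (4) and for the interaction (0) were the same with the block. The IMQ genotype count was also 1 with library series as a covariate (*Lpl* limma adjusted p = 0.00795) and with all 24 libraries in 1 fit (0.00447), and over all alternatives the adjusted p of *Lpl* ranged from 0.0018 to 0.66. Over all genes, that comparison called 3, and 54 with the block, 29 with library series as a covariate, 15 with all 24 libraries, 8 with no filter on low values, 2 and 1 within the first and second series and 0 with no trend (718 at an unadjusted p under 0.05, by limma). The N2ΔMy treatment count fell from 4 to 2 with no filter on low values (*Lpl* and *Cd14* lost) and within the first series alone (*Cd14* and *Adgre1* lost). The wt treatment count fell from 3 to 2 in 4 fits, each of which lost *Cav2*. These were no filter on low values (limma adjusted p = 0.11), the first series alone (0.212), the second alone (0.169) and all 24 libraries in 1 fit (0.127). Leaving out each library in turn gave 0 to 0 genes after IMQ, 0 to 1 after Sham, 2 to 4 for wt treatment, 3 to 4 for N2ΔMy treatment and 0 to 0 for the interaction. The log2 difference of *Cd14* between the genotypes after Sham changed sign within the first series alone (0.38), without wt Ly6Chi Sham replicate 4 (0.08) and without N2ΔMy Ly6Chi Sham replicate 4 (0.10), with a range of -0.26 to 0.10 over the libraries left out. Of 560 recomputed tested values, 532 kept their direction and their side of the threshold. Of 440 recomputed differences that involve Ly6Clo cells, 418 moved by less than 1 SD. None of those past both limits of a call, on adjusted p and on fold change, changed sign. Among the others, in N2ΔMy Ly6Clo against Ly6Chi cells, *Tmem119* (0.71) was at -0.03 and *Ecm1* (0.20) at -0.08 in the second series. *Cd14* (-0.25) was at 0.17 in the first series. A pseudocount of 10 lowered the Ly6Clo genotype difference of *Cav2* to 2.53 and of *Tmem119* to 2.55. Values below about 10, as of *Cd5l* and *Tmem119* in several groups, rest on few reads. The cause of these changes was not tested.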
